A study of Rattus norvegicus with 16 samples.

Results

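The modiolus of the newborn rat cochlea was compared after explant culture and in the native state, on 5 of the 16 arrays of the series. The 5 arrays were chosen by region: all 4 arrays of cultured modiolus and the only array of native modiolus. Total RNA was hybridised to the Affymetrix Rat Neurobiology U34 array, a short-oligonucleotide array on which several probes form a probe set for one transcript. Each array held RNA pooled from 12 cochleae of newborn rats, whose strain the labels do not give. The hypoxic modiolus (2 arrays) was kept for 24 h as an explant in medium with fetal calf serum, insulin and transferrin, and from 3 h after plating passed through 5 h of hypoxia at an oxygen pressure of 10 to 20 mmHg, with 16 h of normoxia afterwards. The normoxic modiolus (2 arrays) was cultured for the same 24 h without hypoxia. The native modiolus (1 array) came from 12 cochleae of 6 animals and was taken straight after dissection. The organ of Corti and the stria vascularis of the same study, each with 4 cultured arrays and with 2 and 1 native arrays, were used to set the modiolus apart.

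The modiolus is the bony core of the cochlea and houses the spiral ganglion. Spiral ganglion neurons receive the signals of the hair cells through one process and send the other into the auditory nerve, and Schwann cells and satellite glia ensheath their fibres and cell bodies. Dissection cuts both processes of these neurons. Cut peripheral nerve is known for a loss of neurofilament and myelin transcripts, a rise of growth-associated and injury transcription factor genes, and the release of chemokines that draw in macrophages.

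The labelled tissue was set against marker genes on the native arrays. Mbp, which encodes myelin basic protein, had a signal of 29700 (arbitrary units) in native modiolus. It had 4210 and 9320 in native organ of Corti and 370 in native stria vascularis. S100b of glia went the other way, with 30400 in native modiolus. Its signals were 50600 and 55300 in native organ of Corti and 69500 in native stria vascularis. The 9 measured Schwann cell and myelin genes summed to 119258 in native modiolus. Their sums were 93577 and 102942 in native organ of Corti and 99779 in native stria vascularis. Nefh, which encodes the heavy neurofilament chain, had a signal of 15600 in native modiolus, 18900 and 21100 in native organ of Corti, and 374 in native stria vascularis, where it was not above background. The 12 measured general neuron markers summed to 53151 in native modiolus, 69195 and 58061 in native organ of Corti and 20748 in native stria vascularis, so that they set the modiolus apart from the stria vascularis and not from the organ of Corti. The 4 measured markers of the stria vascularis summed to a signal of 6695 in native modiolus and to 79849 in native stria vascularis, and one of them, Kcnq1, was not above background in native modiolus. Of the hair cell markers only Chrna9, a hair cell acetylcholine receptor subunit, was on the array, and its 209 in native modiolus was not above background. Background was set for each array at the 95th percentile of 23 control probe sets for sequences foreign to the rat, which lay between signals of 297 and 706 on the modiolus arrays.

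Several features of the design bear on every comparison of culture with native tissue. The native array is described as fresh tissue in one label, while its treatment text speaks of collection after 24 h of cultivation, and its signals differed from those of all 4 cultured arrays: Pearson's r over probe sets was 0.775 to 0.833 between native and cultured modiolus and 0.914 to 0.926 among the 4 cultured arrays. The native tissue was scanned in session 1 and the cultures in sessions 2 and 3, so that culture and scan session cannot be told apart. RNA integrity was read from control probe sets near both ends of a transcript: the 3′/5′ ratio of glyceraldehyde phosphate dehydrogenase was 1.08 to 1.23 on the cultured arrays and 4.76 on the native array, and its part in the results was not tested. For actin the ratio was 1.73 to 2.78 on the cultured arrays and 2.41 on the native array. With 1 native array its spread was assumed to equal that of the other groups, and an exact permutation test of 4 arrays against 1 could not go below 0.2. In pooled tissue, fewer cells of a type and less RNA per cell cannot be told apart.

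Culture was compared with the native state over 1263 probe sets in limma, with a change called where the adjusted p was under 0.05 and all 4 cultured arrays lay on one side of the native array. By the second criterion alone 753 probe sets (59.6%) would have counted. Both together called 257 probe sets (20.3%), of which 131 (10.4%) were higher and 126 (9.98%) lower in cultured modiolus. Of 720 genes, each taken by its brightest probe set (the highest mean log2 signal over all 16 arrays), 66 were called higher and 80 lower. These 146 of 720 genes give the share beside which the counts of the lists below are to be read. The called probe sets include 72 more than 4-fold higher and 48 more than 4-fold lower, and the median log2 difference of all probe sets was -0.04 (genes: -0.08). In a fit of the modiolus arrays alone 16 of the 66 called genes picked by the naming rule did not pass, with adjusted p of 0.054 to 0.24: Nalcn, S100a1, Cpz, Ntrk2, Snap25, Kcnn3, Kcna1, Cacnb3, Ncam1, Plat, Hspa1a, Slc2a1, Hrk, Gfra2, Atp2a2 and Stx12. Another probe set above background was present for 35 of the 66 genes, and for 16 of these at least 1 such probe set was not called. Transcripts of chemokines, metallothionein and injury transcription factors were among the largest rises, and transcripts of neurofilaments and other neuronal proteins among the largest falls. The plot of signals by array shows the 12 largest differences each way among called genes whose higher group lay above the array median.

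**Figure D1:**
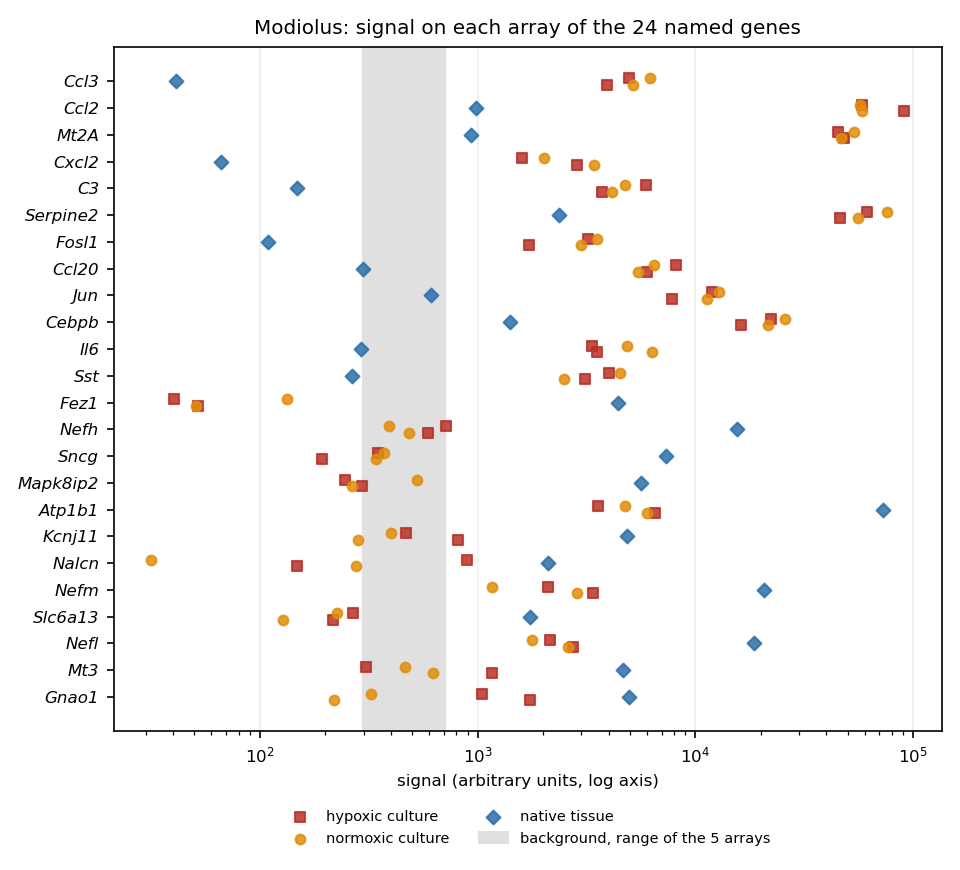
Signal (arbitrary units, log axis) of 24 named genes on each modiolus array: hypoxic cultures (red squares), normoxic cultures (orange circles) and native tissue (blue diamonds), with the background of the 5 arrays as a grey band. For the 12 upper genes all 4 cultured arrays lie right of the native array, and for the 12 lower genes all 4 lie left of it, as the calling rule requires.

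The axonal cytoskeleton had the lowest median of the 19 lists of genes examined. Of its genes, 6 of 9 measured were lower in cultured modiolus, 0 were higher, and the median log2 difference was -2.43. Nefh had signals of 593 and 714 in hypoxic and 483 and 392 in normoxic modiolus, against 15600 in native modiolus. The 4 cultured arrays lay far below the native array, and 2 of them were not above background. The log2 difference was -4.83 (SE 0.30, adjusted p = 1.6e-07). The dimmer probe set of Nefh fell less, by 1.93 on the log2 scale (adjusted p = 0.023). Its signals were 855 and 766 in hypoxic and 212 and 220 in normoxic modiolus, against 1650 in native modiolus. Nefm, the medium neurofilament chain, had signals of 3390 and 2110 in hypoxic and 2850 and 1160 in normoxic modiolus, against 20600 in native modiolus, a log2 difference of -3.22 (SE 0.57, adjusted p = 0.0012). Nefl, the light chain, had signals of 2750 and 2160 in hypoxic and 2610 and 1780 in normoxic modiolus, against 18600 in native modiolus, a log2 difference of -3.01 (SE 0.38, adjusted p = 1e-04). The dimmer probe set of Nefl was not called (log2 difference -2.48, adjusted p = 0.12). All 3 neurofilament chains were thus called lower by their brightest probe sets, which requires all 4 cultured arrays to lie below the native array. Fez1, a kinesin adaptor needed for axon growth, had signals of 52.2 and 40.3 in hypoxic and 50.7 and 134 in normoxic modiolus, against 4420 in native modiolus. No cultured array was above background, so that it was at least 7.46-fold lower (adjusted p = 3.1e-05). The other called genes of the list were Map2 and Mapt, which encode microtubule-associated proteins of dendrite and axon, with log2 differences of -2.43 and -2.25.

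Gap43, the growth-associated protein of extending axons, belongs to the same list and had signals of 24100 and 19500 in hypoxic and 26100 and 24200 in normoxic modiolus, against 12900 in native modiolus. All 4 cultured arrays lay above the native array, but the log2 difference of 0.86 (SE 0.29) missed the threshold (adjusted p = 0.055), and 6 of the alternatives tried brought it under 0.05. Nes, the intermediate filament nestin of progenitors and immature Schwann cells, rose, with signals of 14100 and 12400 in hypoxic and 16600 and 16400 in normoxic modiolus, against 6710 in native modiolus (log2 difference 1.14, SE 0.19, adjusted p = 0.00092). Its dimmer probe set, with signals of 309 to 569 in cultured and 338 in native modiolus, was not called (log2 difference 0.26, adjusted p = 0.94). Vim, the intermediate filament vimentin, had signals of 109000 to 132000 in cultured and 155000 in native modiolus and was not called (adjusted p = 0.36).

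Of 12 spiral ganglion and general neuron markers, 6 fell and 1 rose, with a median log2 difference of -0.46. Sncg, which encodes gamma-synuclein of sensory neurons, had signals of 193 and 350 in hypoxic and 340 and 372 in normoxic modiolus, against 7370 in native modiolus. None of the cultured signals was above background, and the gene was at least 12.4-fold lower (adjusted p = 4.6e-05). Gnao1, the neuronal G protein subunit, had signals of 1750 and 1050 in hypoxic and 219 and 324 in normoxic modiolus, against 4940 in native modiolus. Both normoxic arrays lay below both hypoxic ones and were not above background, and the log2 difference from native of -2.99 (SE 0.57, adjusted p = 0.0023) lost its call with the hypoxic cultures alone (adjusted p = 0.066). Ntrk2, the receptor of brain-derived neurotrophic factor, had signals of 945 and 532 in hypoxic and 674 and 283 in normoxic modiolus, against 3170 in native modiolus, with 1 of 4 cultured arrays above background (log2 difference -2.47, SE 0.73, adjusted p = 0.030). Its call was lost without normoxia replicate 2 (adjusted p = 0.061) or hypoxia replicate 2 (adjusted p = 0.064). Npy, which encodes neuropeptide Y and is known to rise in injured sensory neurons, was the one marker that rose, with signals of 4010 and 7790 in hypoxic and 8630 and 13400 in normoxic modiolus, against 1460 in native modiolus (log2 difference 2.40, SE 0.37, adjusted p = 0.00051). Eno2, the neuronal enolase, fell by less than the genes above, with a log2 difference of -0.65 (adjusted p = 0.022).

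Mapk8ip2, a scaffold of the JNK pathway in neurons, had signals of 294 and 246 in hypoxic and 266 and 526 in normoxic modiolus, against 5650 in native modiolus, and only 1 of the 4 cultured arrays was above background (log2 difference -4.09, SE 0.67, adjusted p = 0.0008). Synaptic vesicle and release genes divided: of 14 measured, 3 rose and 1 fell, with a median of -0.39. Snap25, the neuronal fusion protein of synaptic vesicles, was the one that fell, with signals of 1780 and 838 in hypoxic and 1170 and 661 in normoxic modiolus, against 3310 in native modiolus (log2 difference -1.66, adjusted p = 0.017). Another probe set of Snap25 was not called, with a log2 difference of -0.06 (adjusted p = 0.96). With the hypoxic cultures alone it was not called (adjusted p = 0.064). Snap23, its counterpart in non-neuronal cells, rose by a log2 difference of 1.54 (adjusted p = 0.003), with cultured signals of 1950 to 3160 and a native signal of 892. Stx4, a plasma-membrane fusion protein found in many cell types, rose by 1.20 (adjusted p = 0.024), a call lost with each array centred on its median (adjusted p = 0.056). Syt4, a synaptotagmin of secretory vesicles, had signals of 5080 and 3250 in hypoxic and 6210 and 3840 in normoxic modiolus, against 663 in native modiolus. All cultured arrays lay well above the native array (log2 difference 2.72, SE 0.55, adjusted p = 0.003).

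Among ion pumps and exchangers 3 of 9 genes fell, 0 rose, and the median was -0.68. Atp1b1, the beta subunit of the sodium pump, had signals of 6550 and 3590 in hypoxic and 6000 and 4780 in normoxic modiolus, against 72700 in native modiolus. It was 14.2-fold lower in culture (log2 difference -3.83, SE 0.34, adjusted p = 5.7e-06). Its dimmer probe set, with signals of 2120 to 3510 in cultured and 7500 in native modiolus, fell less, by 1.46 on the log2 scale (adjusted p = 0.00047). Slc8a2, a sodium-calcium exchanger, fell by 1.26 on the log2 scale, and Atp2a2, the calcium pump of the endoplasmic reticulum, fell by 0.68 (adjusted p = 0.011). The Atp2a2 call was lost with the modiolus arrays alone (adjusted p = 0.13) and without the variance trend (adjusted p = 0.084). Most ion channels were not called: among 36 potassium channel genes 1 rose and 2 fell (median -0.27), and among 24 sodium and calcium channel genes 0 rose and 2 fell (median -0.32). In both lists these shares of called genes lay below the 20.3% of all probe sets. Kcnj11, the pore subunit of the ATP-sensitive potassium channel, had signals of 814 and 469 in hypoxic and 284 and 401 in normoxic modiolus, against 4880 in native modiolus, with 1 of 4 cultured arrays above background (log2 difference -3.37, SE 0.44, adjusted p = 0.00013). Kcna1, a potassium channel of myelinated axons, was not above background on any cultured array and was at least 3.46-fold lower than its native signal of 2050 (adjusted p = 0.013). Kcnn3, a calcium-activated potassium channel, was the member that rose, with 1 of 4 cultured arrays above background, a native signal of 54.3 that was not, and a bound of at least 1.49-fold (adjusted p = 0.022). Nalcn, the sodium leak channel, had the widest cultured range of these genes, with signals of 149 and 894 in hypoxic and 278 and 31.8 in normoxic modiolus, against 2110 in native modiolus, and 1 of 4 cultured arrays was above background. Its log2 difference of -3.31 (SE 0.90, adjusted p = 0.019) was not called with the hypoxic cultures alone (adjusted p = 0.13). Cacnb3, an auxiliary calcium channel subunit, fell by 1.28 on the log2 scale (adjusted p = 0.0038).

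Few receptors of fast transmitters were called. Of 33 listed genes for GABA, glycine and acetylcholine receptors and their enzymes 0 were called by limma, 5 at an unadjusted p under 0.05, and the median was 0.05. The largest differences in that list were those of Gabrb2, Gad1 and Gabrg1, with adjusted p of 0.087, 0.052 and 0.057, and those of Gad1 and Gabrg1 passed under several of the alternatives. The list leaves out some GABA genes of the array that were called, given here after their values were seen. Gabbr2, a subunit of the metabotropic GABA-B receptor, fell, with signals of 1140 and 486 in hypoxic and 754 and 507 in normoxic modiolus, against 4630 in native modiolus (log2 difference -2.74, adjusted p = 0.0039), and its 2 dimmer probe sets were not called. Slc32a1, the vesicular GABA transporter, rose by at least 2.86-fold (adjusted p = 0.038), and Slc6a13, a GABA transporter of the cell membrane, fell. Of 26 glutamate receptor and transporter genes 1 rose and 1 fell (median -0.29). Glul, the glutamine synthetase of glia, rose, with signals of 30400 and 47900 in hypoxic and 44300 and 54400 in normoxic modiolus, against 13800 in native modiolus (log2 difference 1.64, SE 0.23, adjusted p = 0.00023). Another bright probe set of Glul, with signals of 21200 to 30100 in cultured and 19900 in native modiolus, was not called (log2 difference 0.40, adjusted p = 0.23). Its remaining probe sets rose by 2.71 and 1.25. Slc1a3, the glial glutamate transporter, fell by its brightest probe set, with cultured signals of 2210 to 3340 and a native signal of 12100 (log2 difference -2.09, adjusted p = 6.7e-05), while another of its 4 probe sets rose by 1.03.

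**Figure D2:**
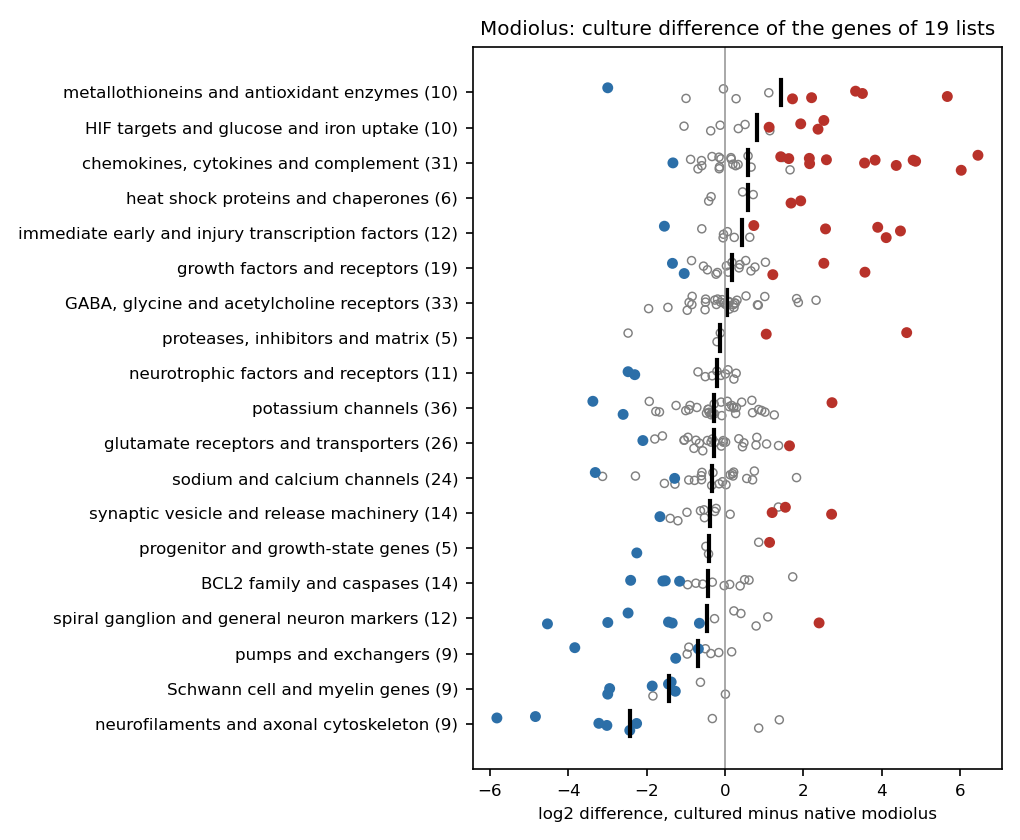
Log2 difference, cultured minus native modiolus, of each measured gene of 19 lists, with the number of genes in brackets. Red and blue filled points were called higher and lower, open points were not called, and black bars are list medians, which run between 1.42 for metallothioneins and antioxidant enzymes and -2.43 for the axonal cytoskeleton. Points of genes not above background on one side are fitted values, not bounds.

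Most Schwann cell and myelin genes fell: 6 of 9 were lower, 0 higher, and the median was -1.44. One of the 6 is the metallothionein Mt3, which is also counted with the metallothioneins. Mbp had signals of 3600 and 4610 in hypoxic and 3930 and 3370 in normoxic modiolus, against 29700 in native modiolus, a 7.68-fold fall (log2 difference -2.94, SE 0.42, adjusted p = 0.00026). S100b, the calcium-binding protein of Schwann cells and other glia, had signals of 8990 and 8700 in hypoxic and 8670 and 7330 in normoxic modiolus, against 30400 in native modiolus (log2 difference -1.86, SE 0.19, adjusted p = 2.1e-05). Sox10, the lineage transcription factor of Schwann cells, and Cnp, an enzyme of myelin, had log2 differences of -1.27 and -1.37 and were also called. Ncam1, an adhesion molecule of neurons and non-myelinating Schwann cells, fell by 1.44 on the log2 scale (adjusted p = 0.016), while another probe set was not called (log2 difference -0.42, adjusted p = 0.73). Ngfr, the low-affinity neurotrophin receptor known to rise in Schwann cells of cut nerve, had signals of 8070 and 9290 in hypoxic and 6270 and 11400 in normoxic modiolus, against 8500 in native modiolus. The cultured arrays lay on both sides of the native array, and the log2 difference was 0.01 (adjusted p = 0.99), while its other probe set, brighter on all 5 modiolus arrays, rose by 0.81 (adjusted p = 0.034), with signals of 12800 and 16600 in hypoxic and 13900 and 19800 in normoxic modiolus, against 8880 in native modiolus.

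Chemokines, cytokines and complement held the largest rises: 12 of 31 genes were higher in culture and 1 was lower, with a median of 0.59. With genes below background on one side set to their bound the median was 0.33. Ccl2, the chemokine that attracts monocytes, had signals of 91200 and 58300 in hypoxic and 58500 and 57200 in normoxic modiolus, against 983 in native modiolus. It was 65.1-fold higher (log2 difference 6.02, SE 0.32, adjusted p = 4.9e-08). Ccl3, a macrophage inflammatory chemokine, had signals of 3930 and 4940 in hypoxic and 5180 and 6190 in normoxic modiolus, against 41.3 in native modiolus, which was not above background. The bound was at least 16.0-fold higher (adjusted p = 1.1e-07). C3, the central complement component, had signals of 3730 and 5960 in hypoxic and 4140 and 4750 in normoxic modiolus, against 149 in native modiolus, and was at least 14.7-fold higher (adjusted p = 6.7e-08). In each of these genes the 4 cultured signals lay within a narrow range far above the native one. Ccl20, the ligand of the receptor CCR6, had signals of 6000 and 8140 in hypoxic and 5460 and 6460 in normoxic modiolus, against 297 in native modiolus, at least 20.6-fold higher (adjusted p = 9.2e-07). Cxcl2, a neutrophil chemokine, had signals of 2850 and 1600 in hypoxic and 3420 and 2030 in normoxic modiolus, against 66.2 in native modiolus, at least 7.63-fold higher (adjusted p = 4.6e-05). Il6, the interleukin, had signals of 3540 and 3340 in hypoxic and 6340 and 4840 in normoxic modiolus, against 292 in native modiolus, at least 14.0-fold higher (adjusted p = 0.010). Tgfb3, a transforming growth factor beta, was the member that fell, by 1.33 on the log2 scale. Tnf, the tumour necrosis factor gene often listed beside these cytokines, was not called, with a log2 difference of -0.10.

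The macrophage list had a single measured gene. Itgam, an integrin of macrophages and neutrophils, had signals of 390 and 456 in hypoxic and 525 and 405 in normoxic modiolus, against 213 in native modiolus, and was above background on no modiolus array. None of the erythroid markers was on the array. The 2 endothelial markers, Nos3 and Edn1, summed to signals of 438 to 1185 on the cultured arrays and 733 on the native array, and neither was called. The 3 fibroblast and mesenchyme markers summed to 136318 to 155302 on the cultured arrays and 180212 on the native array, with none called by their brightest probe sets. Pdgfra, a receptor of fibroblasts and glial precursors, had a log2 difference of 0.08 by that probe set, while 3 of its 4 dimmer probe sets rose by 2.73 to 4.13. The part of other cell types in the results was not tested further.

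Promoter sequence is shown for 5 of these inflammatory genes, since many chemokine and cytokine promoters are known to be switched on by the factor NF-kB. The sequences are the 100 bases before the transcription start in RefSeq (GRCr8), written 5′ to 3′ on the strand of the gene, with matches to GGGA, any 4 bases and CC on either strand in capitals. They lie at chr9:91837059-91837158 for Ccl20 (plus strand), chr14:17467256-17467355 for Cxcl2 (minus strand), chr9:2201340-2201439 for C3 (minus strand), chr4:5894576-5894675 for Il6 (minus strand) and chr3:176816905-176817004 for Cebpb (plus strand).
Ccl20: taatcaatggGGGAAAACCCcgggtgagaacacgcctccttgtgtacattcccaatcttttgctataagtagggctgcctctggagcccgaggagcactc
Cxcl2: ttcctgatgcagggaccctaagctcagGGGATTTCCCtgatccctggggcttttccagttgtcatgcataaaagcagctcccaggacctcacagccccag
C3: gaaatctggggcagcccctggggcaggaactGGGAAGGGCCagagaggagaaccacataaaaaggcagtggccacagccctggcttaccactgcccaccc
Il6: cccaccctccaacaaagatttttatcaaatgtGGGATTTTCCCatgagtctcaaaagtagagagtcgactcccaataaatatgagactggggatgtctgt
Cebpb: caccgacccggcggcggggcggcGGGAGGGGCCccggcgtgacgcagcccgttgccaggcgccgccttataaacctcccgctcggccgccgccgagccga

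In the 5 genes the nearest match ended 57 to 80 bases before the start, and in Il6 overlapping matches formed one run of capitals. RefSeq promoters were matched for 557 of the 720 genes. Within 250 bases before the start the motif was found in 32.7% of 52 matched genes that rose in cultured modiolus, in 24.6% of 57 that fell, in 24.2% of all 557 and in 16.8% of 27457 RefSeq promoters. The 5 genes were picked because they rose and hold the motif, and these shares are a description without a test.

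Metallothioneins, the small metal-binding proteins that buffer zinc and copper, moved in opposite directions. Mt2A had signals of 48000 and 45100 in hypoxic and 46600 and 53600 in normoxic modiolus, against 932 in native modiolus. The 4 cultured arrays were close to each other and 50.9-fold above native (log2 difference 5.67, SE 0.19, adjusted p = 8.6e-10). Mt1, its neighbour on chromosome 19, had signals of 15500 and 17100 in hypoxic and 17300 and 18700 in normoxic modiolus, against 5180 in native modiolus (log2 difference 1.72, SE 0.26, adjusted p = 0.00035). Mt3, the form found mainly in the nervous system, had signals of 1170 and 309 in hypoxic and 624 and 462 in normoxic modiolus, against 4650 in native modiolus, with 1 of 4 cultured arrays above background (log2 difference -2.99, SE 0.52, adjusted p = 0.0011). The 250 bases before the start of the 3 genes are shown because Mt1 and Mt2A are classical targets of metal response elements. Matches to TGCACNC or TGCGCNC on either strand are in capitals. The windows are chr19:10838709-10838958 for Mt2A, chr19:10832976-10833225 for Mt1 and chr19:10856081-10856330 for Mt3, all on the minus strand of GRCr8 (RefSeq).
Mt2A: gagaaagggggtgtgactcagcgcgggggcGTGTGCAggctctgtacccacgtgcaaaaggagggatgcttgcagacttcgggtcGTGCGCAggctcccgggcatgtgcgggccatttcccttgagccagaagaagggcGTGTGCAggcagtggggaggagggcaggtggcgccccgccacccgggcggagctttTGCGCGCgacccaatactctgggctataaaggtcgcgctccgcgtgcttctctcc
Mt1: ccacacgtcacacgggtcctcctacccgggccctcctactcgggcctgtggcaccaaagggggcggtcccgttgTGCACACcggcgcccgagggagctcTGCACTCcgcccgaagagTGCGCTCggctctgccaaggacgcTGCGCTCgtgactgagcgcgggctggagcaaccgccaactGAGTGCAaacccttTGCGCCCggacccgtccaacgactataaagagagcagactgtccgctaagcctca
Mt3: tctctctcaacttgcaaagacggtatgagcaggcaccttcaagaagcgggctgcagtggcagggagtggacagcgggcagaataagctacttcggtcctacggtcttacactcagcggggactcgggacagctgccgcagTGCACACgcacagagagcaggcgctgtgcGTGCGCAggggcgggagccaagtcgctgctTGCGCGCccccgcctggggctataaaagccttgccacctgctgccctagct

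The window of Mt2A held 4 matches, that of Mt1 held 6 and that of Mt3 held 3. A match was thus present in the gene that fell as well as in both that rose. One of the 2 motifs occurred in 48.1% of the 52 matched genes that rose, in 49.1% of the 57 that fell, in 35.5% of the 557 genes matched and in 21.2% of all RefSeq promoters.

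Antioxidant enzymes rose beside Mt2A, so that of 10 genes in the list 5 rose and 1 fell (median 1.42). Hmox1, the inducible haem oxygenase, had signals of 36500 and 34400 in hypoxic and 53700 and 43000 in normoxic modiolus, against 4090 in native modiolus (log2 difference 3.33, SE 0.20, adjusted p = 1.3e-07). Sod2, the mitochondrial superoxide dismutase, had signals of 14800 and 17700 in hypoxic and 31400 and 11400 in normoxic modiolus, against 1530 in native modiolus (log2 difference 3.50, SE 0.73, adjusted p = 0.0038). Sod1, the cytosolic form, was not called, with a log2 difference of 0.28. Of 6 heat shock and chaperone genes 2 rose and 0 fell (median 0.58). Hspb1, the small heat shock protein induced in injured neurons, rose by a log2 difference of 1.93 (adjusted p = 0.0017), and Hspa1a, the stress-inducible chaperone of the HSP70 family, by 1.68 (adjusted p = 0.0061).

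Immediate early and injury transcription factors divided by gene: of 12 measured, 5 rose and 1 fell (median 0.43). Jun, a transcription factor known to rise in neurons and Schwann cells after nerve injury, had signals of 7810 and 11900 in hypoxic and 11300 and 12900 in normoxic modiolus, against 610 in native modiolus (log2 difference 4.11, SE 0.27, adjusted p = 2.7e-07). Fosl1, a Fos-related factor of the same complex, had signals of 1730 and 3200 in hypoxic and 2990 and 3530 in normoxic modiolus, against 109 in native modiolus, at least 8.88-fold higher (adjusted p = 0.00016). Cebpb, a factor of the acute-phase response, had signals of 16200 and 22200 in hypoxic and 21600 and 25800 in normoxic modiolus, against 1410 in native modiolus (log2 difference 3.90, SE 0.22, adjusted p = 7.7e-08). Junb rose by a log2 difference of 2.56 (adjusted p = 4.6e-05). Fos, the partner of Jun in the AP-1 complex, had signals of 11000 and 12900 in hypoxic and 10300 and 10400 in normoxic modiolus, against 11400 in native modiolus. The groups overlapped, with a log2 difference of -0.04 (adjusted p = 0.95), while 1 of its 2 dimmer probe sets rose by 1.48. Nr4a1, another immediate early gene, was the member that fell, by 1.55 on the log2 scale.

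Targets of the hypoxia-inducible factor and genes of glucose and iron uptake were compared in all 4 cultures together: 4 of 10 rose, 0 fell, and the median was 0.82. Hif1a, the oxygen-regulated subunit of that factor, had signals of 4920 and 7140 in hypoxic and 8370 and 9740 in normoxic modiolus, against 1400 in native modiolus (log2 difference 2.37, SE 0.30, adjusted p = 9.8e-05). Igfbp3, a carrier of insulin-like growth factors, rose by a log2 difference of 2.52 (adjusted p = 4e-05), and Tfrc, the transferrin receptor, by 1.93 (adjusted p = 0.0011). Slc2a1, the glucose transporter GLUT1, had signals of 47200 and 23200 in hypoxic and 28000 and 15900 in normoxic modiolus, against 12100 in native modiolus. Its log2 difference of 1.13 (adjusted p = 0.047) was not called without normoxia replicate 1 (adjusted p = 0.090), without hypoxia replicate 1 (adjusted p = 0.065) or with normoxic cultures alone (adjusted p = 0.21).

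Of 5 genes for proteases, their inhibitors and matrix 2 rose and 0 fell (median -0.12). Serpine2, which encodes protease nexin-1, an inhibitor of thrombin secreted by glia and fibroblasts, had signals of 46000 and 61400 in hypoxic and 56100 and 76300 in normoxic modiolus, against 2360 in native modiolus, 24.8-fold higher (log2 difference 4.63, SE 0.25, adjusted p = 4.9e-08). Plat, the tissue plasminogen activator, rose by 1.05 (adjusted p = 0.0017). Sst, which encodes the neuropeptide somatostatin, had signals of 3130 and 4010 in hypoxic and 2500 and 4530 in normoxic modiolus, against 265 in native modiolus, at least 11.1-fold higher (adjusted p = 0.00033). Its other probe set, with signals of 379 to 1770 in cultured and 357 in native modiolus, was not called (log2 difference 0.89, adjusted p = 0.45). Slc6a13, a GABA transporter of the meninges, had a native signal of 1750, was not above background on any cultured array and was at least 2.97-fold lower (adjusted p = 0.0038).

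Of 14 genes of the BCL2 family and caspases, which control programmed cell death, 4 fell and 0 rose by their brightest probe sets (median -0.45). Bad, a pro-death member, had signals of 6930 and 7120 in hypoxic and 6720 and 8540 in normoxic modiolus, against 21000 in native modiolus (log2 difference -1.52, adjusted p = 0.00033). The dimmer probe set of Bad lay higher in culture, with signals of 2270 to 2870 against 1890 in native modiolus. It was not called (log2 difference 0.44, adjusted p = 0.31). The other 3 called genes had probe sets that were called in opposite directions. Bax, the pro-death partner of Bcl2, fell by 1.16 on the log2 scale by its brightest probe set, with cultured signals of 14100 to 19600 and a native signal of 36700, while its other 2 probe sets rose by 2.14 and 1.99. Casp2, a caspase, fell by 2.41 by its brightest probe set and rose by 1.84 by another. Hrk, a BH3-only death protein of neurons, fell by at least 1.68-fold by the probe set brightest over the 16 arrays, a call lost without hypoxia replicate 2 (adjusted p = 0.055), and rose by 2.43 on the log2 scale (adjusted p = 0.0044) by another, which was the brighter one on all 4 cultured modiolus arrays. Such disagreement was found in 7 of the 276 genes with more than 1 probe set. Stx12, a syntaxin of endosomes, fell by 0.88 by one probe set, which lost its call without any 1 of 3 cultured arrays, and rose by 3.64 by the other. For these genes the array gives no single direction. Bcl2, which opposes cell death, had signals of 1190 and 1700 in hypoxic and 466 and 1570 in normoxic modiolus, against 2150 in native modiolus, and was not called (adjusted p = 0.26). Without normoxia replicate 2 it was (adjusted p = 0.018).

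Neurotrophic factors and receptors gave 2 falls and 0 rises among 11 genes (median -0.21), a share of called genes near the 20.3% of all probe sets. Beside Ntrk2, Gfra2, a receptor of neurturin, fell, with signals of 1410 and 1210 in hypoxic and 355 and 1000 in normoxic modiolus, against 4430 in native modiolus (log2 difference -2.30, adjusted p = 0.019), and was not called with the hypoxic cultures alone (adjusted p = 0.12). The dimmer probe sets of Gfra2 were not called, with log2 differences of -1.02 (adjusted p = 0.29) and -0.58 (adjusted p = 0.59). The growth factor list gave 3 rises and 2 falls among 19 genes (median 0.18). Fgf5, a fibroblast growth factor, had signals of 984 and 1850 in hypoxic and 2010 and 2890 in normoxic modiolus, against 138 in native modiolus, at least 5.82-fold higher (adjusted p = 0.0049). Igfbp5, a binding protein of insulin-like growth factors, rose by 1.22. Igfbp2, another of these, fell by 1.34 by its brightest probe set and rose by 1.39 by the other. Nnat, which encodes neuronatin of developing neurons, had signals of 2690 and 2060 in hypoxic and 2320 and 3130 in normoxic modiolus, against 12000 in native modiolus (log2 difference -2.25, adjusted p = 0.0046).

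The culture difference of the modiolus was then set against the mean of the culture differences of the organ of Corti and the stria vascularis, in one model. This difference of differences was called for 61 probe sets (4.83%), 32 higher (2.53%) and 29 lower (2.3%) in the modiolus. By gene 18 were higher and 20 lower, against a median of 0.11 over all genes. The plot of culture differences in 3 regions shows the 6 largest each way.

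**Figure D3:**
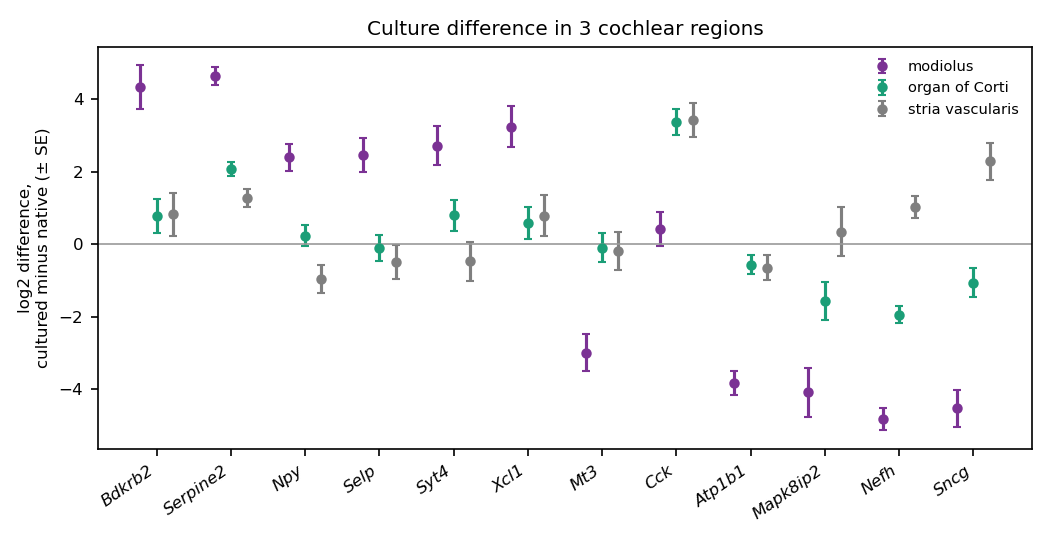
Log2 difference, cultured minus native, of 12 named genes in modiolus (purple), organ of Corti (green) and stria vascularis (grey), with the model's standard error. The purple point lies above the other 2 in the 6 genes on the left and below them in the 6 on the right. Cck had a modiolus value of 0.41 beside 3.36 and 3.42 in the other regions.

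Of the 9 axonal cytoskeleton genes 6 were lower in cultured organ of Corti, and in stria vascularis 3 were lower and 1 higher. Of the 9 Schwann cell and myelin genes 4 were lower in organ of Corti, and in stria vascularis 3 were lower and 1 higher. The gap of Mbp was not called (-1.69, adjusted p = 0.081), and S100b fell more in both other regions (gap 0.88, adjusted p = 0.046). Some of the neuronal transcripts that fell in cultured modiolus fell further there than in the other regions. Nefh had signals of 3880 to 7530 in cultured and of 18900 and 21100 in native organ of Corti. Its log2 difference was -4.83 in the modiolus, -1.95 in organ of Corti and 1.01 in stria vascularis, and the modiolus differed from their mean by -4.37 (SE 0.36, adjusted p = 4.3e-05). Sncg had signals of 4610 to 9860 in cultured and of 15500 and 14100 in native organ of Corti, and its gap was -5.14 (SE 0.61, adjusted p = 0.00051). For Nefh, Sncg and Mapk8ip2 the native stria vascularis was not above background, so that the stria part of their gaps rests on dim signals. Mapk8ip2 had a gap of -3.48 (adjusted p = 0.026), which was not called without native organ of Corti replicate 1 (adjusted p = 0.053) or replicate 2 (adjusted p = 0.059). Map2 and Eno2 also had called gaps, of -2.09 (adjusted p = 0.0031) and -1.31 (adjusted p = 0.0037). The gaps of Nefm, Nefl and Fez1 were -1.72, -1.69 and -2.34, and none was called (adjusted p = 0.21, 0.052 and 0.12). Those of Gnao1, Ntrk2 and Snap25, at -1.06, -1.83 and -0.80, were not called either (adjusted p = 0.56, 0.33 and 0.57). Atp1b1 had signals of 64500 to 98800 in cultured and of 119000 and 113000 in native organ of Corti, and of 36000 to 54600 in cultured and 68100 in native stria vascularis, where its culture differences were -0.57 (adjusted p = 0.16) and -0.65 (adjusted p = 0.26). The gap of the modiolus was -3.22 (SE 0.40, adjusted p = 0.00076), and -2.02 (adjusted p = 0.00081) by the dimmer probe set. Mt3 had a gap of -2.85 (adjusted p = 0.018), beside culture differences of -0.10 in organ of Corti and -0.19 in stria vascularis. It was not called with the hypoxic cultures alone (adjusted p = 0.051).

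Cck, which encodes the neuropeptide cholecystokinin, differed in another way. Its signals were 592 and 1320 in hypoxic and 276 and 228 in normoxic modiolus, against 354 in native modiolus, with a culture difference of 0.41 (adjusted p = 0.65). Cultured organ of Corti had 2090 to 2510, against 247 and 174 in native tissue, and cultured stria vascularis had 1580 to 2530, against 158 in native tissue, all 3 native signals not above background. The gap of the modiolus was -2.98 (SE 0.55, adjusted p = 0.0077), and it was not called with the hypoxic cultures alone (adjusted p = 0.086). Ncam1 also went apart, with a gap of -2.82 (adjusted p = 0.0031) beside culture differences of -1.44 in the modiolus, 0.06 in organ of Corti and 2.70 in stria vascularis, where its native signal was not above background.

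Serpine2 rose in all 3 regions but most in the modiolus. Its signals were 30600 to 41400 in cultured and 7190 and 9710 in native organ of Corti, and 40100 to 45700 in cultured and 17900 in native stria vascularis, and the gap was 2.95 (SE 0.30, adjusted p = 0.0002). Npy had culture differences of 2.40 in the modiolus, 0.23 in organ of Corti and -0.96 in stria vascularis, with a gap of 2.76 (SE 0.44, adjusted p = 0.0031). Selp, the adhesion molecule P-selectin of platelets and endothelium, had signals of 1620 and 2370 in hypoxic and 1630 and 1560 in normoxic modiolus, against 310 in native modiolus, and a gap of 2.75 (adjusted p = 0.013). The native modiolus signal lay just above its background of 297. Native organ of Corti had 885 and 1000 and native stria vascularis 1010, and the cultures of these regions had 440 to 1490. Bdkrb2, the bradykinin receptor of sensory neurons and vessels, had signals of 700 and 594 in hypoxic and 641 and 1440 in normoxic modiolus, against 23.9 in native modiolus. In the other regions no array was above background, and 2 of the 4 cultured modiolus arrays were, so that its gap of 3.54 (adjusted p = 0.013) rests in part on dim signals. Xcl1, the lymphotactin gene, had signals of 1080 and 930 in hypoxic and 1360 and 1430 in normoxic modiolus, against 111 in native modiolus, and was likewise not above background in the other regions. Its gap of 2.56 (adjusted p = 0.049) was not called in most fits that left out an array, with adjusted p up to 0.098. The gap of Syt4 of 2.56 (adjusted p = 0.044) was not called without modiolus normoxia replicate 1 (adjusted p = 0.074), without modiolus hypoxia replicate 1 (adjusted p = 0.072) or without any 1 of 5 arrays of the other regions (adjusted p = 0.051 to 0.089).

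Of the 5 progenitor and growth-state genes 2 had a called gap, both higher in the modiolus. The gap of Gap43 was 2.04 (SE 0.34, adjusted p = 0.0040), beside culture differences of 0.86 in the modiolus, -1.64 in organ of Corti and -0.71 in stria vascularis. Nes had a gap of 2.16 (SE 0.23, adjusted p = 0.00022), beside culture differences of 1.14 in the modiolus, -0.86 in organ of Corti and -1.18 in stria vascularis. Vim had a gap of 0.01 (adjusted p = 1) and Nnat of -1.09 (adjusted p = 0.43). Jun rose in all 3 regions, with a gap of 2.28 (adjusted p = 0.0013). Ccl2 and Mt2A had gaps of 0.60 (adjusted p = 0.56) and 0.01 (adjusted p = 0.99), with culture differences in the organ of Corti of 4.90 and 6.53. Ccl3 had a called gap of 1.74 (adjusted p = 0.049), with no native array above background in any of the 3 regions. Among called genes of the culture comparison, 31 of 146 also had a called gap, beside the 18 higher and 20 lower among all 720 genes. Both comparisons use the same modiolus arrays, so the 2 calls are not independent.

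The 4 cultured modiolus arrays were last compared with the 8 cultured arrays of the other regions, which leaves out the native arrays and sets cultures of the same scan sessions against each other. Here a call also required the 4 modiolus arrays to lie on one side of all 8 others. Of the 1263 probe sets 176 (13.9%) were called, 108 higher (8.55%) and 68 lower (5.38%) in cultured modiolus. The split depends on the scaling: with quantile normalization 73 were higher and 81 lower, and with each array centred on its median 46 were higher and 90 lower, as the median difference over all probe sets was 0.30 as deposited, 0.10 and 0.03 under these scalings. The 10 genes named next were called in the same direction under both.

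**Figure D4:**
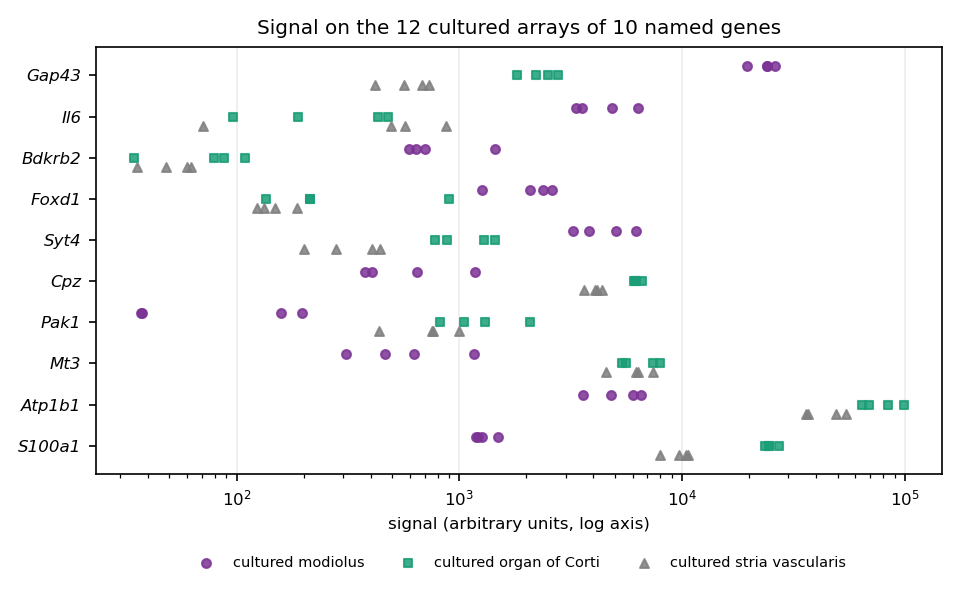
Signal (arbitrary units, log axis) of 10 named genes on the 12 cultured arrays: modiolus (purple circles), organ of Corti (green squares) and stria vascularis (grey triangles). The modiolus arrays lie right of all others in the 5 upper genes and left of all others in the 5 lower genes, as a call in this comparison requires.

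Gap43 had signals of 19500 to 26100 on the 4 modiolus cultures, 1820 to 2790 on those of the organ of Corti and 419 to 728 on those of the stria vascularis. The log2 difference was 4.31 (SE 0.16, adjusted p = 1.7e-09), with 4.32 in session 2 and 4.30 in session 3. Il6 had signals of 3340 to 6340 in cultured modiolus and 70.5 to 873 in the 8 other cultures, 2 of which were above background (log2 difference 3.77, SE 0.51, adjusted p = 0.00013). Its gap in culture differences was 1.39 and was not called (adjusted p = 0.71). Foxd1, a forkhead transcription factor known from the stroma of the developing kidney, had signals of 1270 to 2620 in cultured modiolus and 123 to 902 in the other cultures, 1 of which was above background (log2 difference 3.23, SE 0.44, adjusted p = 0.00014). Against the native modiolus with its signal of 2250 it did not pass (adjusted p = 0.95). Syt4 was higher in cultured modiolus by a log2 difference of 2.89 (adjusted p = 1.1e-05). Bdkrb2 was above background on 2 of the modiolus cultures and on 0 of the 8 others, and was at least 1.87-fold higher (adjusted p = 7.1e-06).

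S100a1, a calcium-binding protein, had signals of 1190 to 1490 in cultured modiolus, 23700 to 27300 in cultured organ of Corti and 7950 to 10600 in cultured stria vascularis (log2 difference -3.58, SE 0.11, adjusted p = 3.8e-10). The native tissues already differed, with 2500 in modiolus, 31000 and 31500 in organ of Corti and 14800 in stria vascularis. The gap in culture differences was -0.48 and was not called (adjusted p = 0.37). Atp1b1 had a log2 difference of -3.51 (adjusted p = 2.8e-08) and Mt3 of -3.42 (adjusted p = 1.7e-06). Cpz, a carboxypeptidase of the extracellular matrix, had signals of 376 to 1180 in cultured modiolus, 1 of 4 above background, and 3630 to 6620 in the other cultures (log2 difference -3.08, SE 0.23, adjusted p = 7.8e-07). Its native signals were 3540 in modiolus, 14000 and 16400 in organ of Corti and 13800 in stria vascularis. Its gap of -1.05 was not called (adjusted p = 0.35). Pak1, a kinase of the actin cytoskeleton, was not above background on any cultured modiolus array and had signals of 436 to 2070 in the other cultures and was at least 1.60-fold lower in the modiolus (adjusted p = 0.00016). Its gap of -2.67 was not called (adjusted p = 0.17).

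Between the cultures themselves, hypoxia against normoxia gave 1 called probe set of 1263 (0.0792%) in limma, and 101 at an unadjusted p under 0.05. The one probe set belongs to Nos2, the inducible nitric oxide synthase. Its signals were 5270 and 4140 in hypoxic and 490 and 423 in normoxic modiolus, with 3770 in native modiolus. Both normoxic signals were not above background, so that it was at least 7.74-fold higher in hypoxic cultures (adjusted p = 0.040). The call was lost in 12 of 14 fits that left out an array and in 5 of 10 other alternatives, the replicate block among them (adjusted p = 0.061), with adjusted p of 0.00083 to 0.19 over all of them. Nos2 had 7 probe sets, and none of the other 6 was called. The brightest of them had signals of 3400 and 2390 in hypoxic and 2660 and 3650 in normoxic modiolus, a log2 difference of -0.13 (adjusted p = 0.94), and it rose against the native signal of 483 by 2.59 (adjusted p = 0.00013). Hif1a was lower on both hypoxic arrays than on both normoxic arrays, with a log2 difference of -0.61 (SE 0.26, adjusted p = 0.59). Slc2a1 differed by 0.65 (SE 0.33, adjusted p = 0.71), with overlapping groups, and Hmox1 by -0.44 (SE 0.18, adjusted p = 0.56). Gnao1, at 2.28 (SE 0.51, adjusted p = 0.31), had the same order on all 4 arrays without passing the threshold. With 2 arrays a group, these p-values do not show that the groups were alike.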

How the data were processed

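RNA from pooled cochleae was hybridised to the rat neurobiology array. The authors deposited one intensity per probe set and array on a linear scale. Per the deposited values each array had been scaled to a 2% trimmed mean of 2500, and the summary software is not given in the sources used here. Deposited instrument records gave the chip type and scan session.

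Of 1322 probe sets, 59 controls were left out and 1263 were tested as log2(intensity + 16). A single gene symbol was found for 1137, several for 8 and none for 118, and 1132 were matched by gene number to RefSeq. A model with 1 mean for each of 9 groups was fitted to all 16 arrays in limma 3.58.1 (R 4.3.3, statmod 1.5.0; variance trend, 7 residual degrees of freedom), with two-sided tests and Benjamini-Hochberg adjustment over the 1263 probe sets. Errors are the model's standard errors. Arrays are labelled as repeats of pools. In each cultured group repeat 1 was scanned in session 2 and repeat 2 in session 3. The p-values thus measure the spread of pools and scan sessions together, and the number of arrays limits the precision.

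An at-least fold raises the signals of a group with no array above background to that background. On simulated data with 200 changed probe sets the culture comparison recovered 25.9% of 2-fold, 55.6% of 4-fold and 74.7% of 8-fold changes, with 4.33% of calls false, and the comparison with the other regions 17.4%, 42.5% and 64.6%, with 4.22% false. The simulated noise was normal, independent between arrays and of equal spread on native and cultured arrays. No shift by scan session or RNA integrity was simulated, so the false shares do not cover such shifts in the real arrays.

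A rule named the genes, with the brightest probe set (in mean log2 signal over the 16 arrays) standing for a gene: among called genes the 12 largest culture differences each way, the 6 largest differences between regions and the 5 largest between cultures, up to 4 of each list, and a few fixed genes. Others (Map2, Mapt, Eno2, Cnp, Sox10, Tgfb3, Tnf, Mt1, Sod1, Nr4a1, Nos2, Gabbr2, Slc32a1 and the genes under the other observations) were named after their values were seen. The members and lists were chosen with earlier results of these data known.

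Repeat numbers were not treated as pairs: over 15 pairs of groups the correlation of residuals between same-numbered arrays was -0.0058 to 0.28, and 10 of these exceeded 0.1. Alternatives were the pseudocount, quantile normalization, centring, a constant variance, array weights, removal of dim probe sets, modiolus arrays alone and 1 kind of culture. Further ones were the replicate block and the scan session, as a random block or as a term for session 3 against session 2. Arrays of groups with more than 1 array were also left out in turn.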

Additional observations from a re-analysis of the deposited data

Results flagged for a closer look

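The culture difference of 12 named genes differed between the modiolus and the mean of the organ of Corti and stria vascularis by the interaction test in limma. The gaps were 2.95 for Serpine2, 3.54 for Bdkrb2, 2.76 for Npy, 2.75 for Selp, 2.56 for Syt4 and 2.56 for Xcl1, all higher in the modiolus. They were -5.14 for Sncg, -4.37 for Nefh, -3.48 for Mapk8ip2, -3.22 for Atp1b1, -2.98 for Cck and -2.85 for Mt3, all lower in the modiolus. Those of Bdkrb2 and Xcl1 were measured against regions in which neither gene was above background.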

How the results depend on the processing

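The culture comparison called 235 to 267 probe sets when each modiolus culture was left out in turn and 163 when only the modiolus arrays were fitted, where 157 of the 257 calls remained. Only arrays of groups with more than 1 array were left out, so the single native arrays of modiolus and stria vascularis stayed in every fit. Calls for the region comparison were 46 to 66 when each such array was left out and 35 without the variance trend. Cultured modiolus against the other cultures gave 172 to 200 when each such array was left out. Hypoxia gave 0 calls with a pseudocount of 1, with centred arrays, without the variance trend, with array weights and with the replicate block. It gave 0 to 2 when each such array was left out, the 2 without normoxia modiolus replicate 1. With the replicate block the other comparisons gave 296, 85 and 179 calls, and with the scan session as a term 306, 90 and 178. That term set session 3 against session 2 only, the same split of the cultures as the replicate block. It could not adjust culture against native tissue, which was scanned in session 1. No call changed direction. For named genes, 1418 results of the culture comparison stayed on their side of the threshold, 40 lost and 31 gained a call, and in the region comparison 275 stayed and 37 lost. The causes were not tested. Probe sets near background, and single native arrays, limit what can be seen.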

Other observations

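Some called genes outside the named ones, chosen after their values were seen, add neuropeptides and signalling genes to the picture of cultured modiolus. Penk, which encodes the enkephalin precursor, had signals of 8940 and 12900 in hypoxic and 12100 and 11000 in normoxic modiolus, against 1480 in native modiolus (log2 difference 2.89, adjusted p = 1.8e-05). Tac1, the precursor of substance P, went the other way, with signals of 2330 and 2070 in hypoxic and 2220 and 1200 in normoxic modiolus, against 9830 in native modiolus (log2 difference -2.37, adjusted p = 0.00034). Mif, a cytokine stored in many cells, had signals of 81000 and 96600 in hypoxic and 79300 and 75100 in normoxic modiolus, against 18100 in native modiolus (log2 difference 2.19, adjusted p = 1.4e-06).

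Thra, the thyroid hormone receptor alpha, had signals of 3460 and 3720 in hypoxic and 4330 and 3990 in normoxic modiolus, against 20300 in native modiolus (log2 difference -2.39, adjusted p = 8.3e-07). Pde4b, a phosphodiesterase that degrades cyclic AMP, rose by a log2 difference of 2.48 (adjusted p = 8.9e-05), and Crem, a cyclic AMP-responsive transcription factor, by 1.95 (adjusted p = 0.00045). Nrxn2, a presynaptic neurexin, fell by 2.05 on the log2 scale (adjusted p = 0.0011). All 4 cultured arrays lay on one side of the native array in each of these genes, as the calling rule requires.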
